A study of Mus musculus with 6 samples.

Results

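The urea cycle and the genes placed around it in periportal hepatocytes were followed in mouse liver after bariatric surgery by vertical sleeve gastrectomy (VSG), in which the larger share of the stomach is cut away to leave a tube, and in sham-operated controls. The 9 genes described were taken by name, by a list that uses no measured threshold but was drawn up with earlier results of these data known: the cycle enzymes Cps1, Otc, Ass1 and Asl, the cofactor synthase Nags, the mitochondrial carriers Slc25a15 and Slc25a13, the glutaminase Gls2, and Cdh1, which encodes the adhesion protein E-cadherin. All 9 were found among the 55385 genes of the count table, 1 entry each, and all 9 passed the filter on low counts. The urea cycle turns ammonia and the amino group of aspartate into urea, which the kidney excretes. Its first steps run in the mitochondrial matrix and the later ones in the cytosol, so ornithine, citrulline and aspartate have to cross the inner mitochondrial membrane. The cycle is most active in hepatocytes near the portal vein, where blood from the gut arrives, while hepatocytes around the central vein capture leftover ammonia as glutamine.

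Poly(A) RNA was sequenced from 6 livers, 3 after sham operation and 3 after VSG, with 1 mouse behind each library per the study's methods. All animals were male and had been fed a high-fat diet (HFD) for 10 weeks before the operation and for 12 weeks after it, so that diet was shared and the operation separated the groups. The labels give an age of 6 to 8 weeks without saying whether it holds at the start or the end of the first diet period, so the age at operation is uncertain by that period, and they give about 40 mg of liver per extraction. The labels name no genetic change in either group, and the feeding state at tissue collection was not given in the sources used here.

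Total counts ran from 22804397 to 24191778 per library, and every member but Cdh1 had at least 778 counts in each library. Reads of mitochondrially encoded genes took 5.59% to 6.58% of the counts after sham and 4.14% to 5.01% after VSG. The 10 hepatocyte markers summed to between 90838 and 131606 CPM (counts relative to library size, scaled by the trimmed mean of M values, TMM) in the sham livers and to between 117146 and 151031 in the VSG livers. Of these 10, Fgb (5.12-fold) and Ambp (2.25-fold) rose and none fell at the adjusted threshold, or 20% called beside 14.7% of all genes tested. At an unadjusted p under 0.05, 3 were higher and 2 lower (Ttr at log2 -0.83 and Apoa2 at -0.84, both without overlap). Trf had means of 16188 and 38611 CPM and Alb of 61458 and 49966 CPM, and the groups overlapped for both. These 6 were named after their values had been seen. Markers of other cell types differed unevenly. All 12 neutrophil markers rose after VSG. Their sum was 2.83 to 15.4 CPM in the sham livers and 1877, 154 and 865 CPM in VSG 4, 5 and 6. Of the 13 macrophage markers tested, 7 (53.8%) rose as well. The 9 stellate cell markers summed to between 652 and 1028 CPM after sham and to between 321 and 631 CPM after VSG. Of them 1 (11.1%) was called lower and 8 were lower at an unadjusted p under 0.05. All 9 log2 fold changes were below 0. None of 8 endothelial, 10 lymphocyte and 7 erythroid markers passed in edgeR, with 1, 0 and 1 of them higher at an unadjusted p under 0.05. Whether these cells bore on the differences described here was not tested. In bulk tissue a smaller share of hepatocytes and less RNA per hepatocyte cannot be told apart.

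Of the 9 genes, 1 (11.1%) passed an adjusted p of 0.05 in edgeR's quasi-likelihood test, which called 14.7% of all 14454 genes tested. This was Nags, which rose 1.36-fold and was called in 7 of 14 alternatives. None of the other 8 passed. By direction, 6.79% of all genes were called higher and 7.87% lower after VSG. At an unadjusted p under 0.05 the members gave 1 higher (Nags) and 2 lower genes (Ass1 and Asl), and DESeq2 called Nags and Asl. The log2 fold changes of VSG over sham were positive for 4 members and negative for 5, with a median of -0.01 (-0.20 to 0.091 over the alternatives) beside 0.03 over all genes tested. The 3 VSG livers lay wholly below the 3 sham livers for Otc, Ass1, Asl and Slc25a13 and wholly above them for Nags, which makes 5 of 9 genes without overlap against 39.7% of all genes. That background was 19.8% in the higher and 19.8% in the lower direction, and the members gave 1 and 4.

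**Figure D1:**
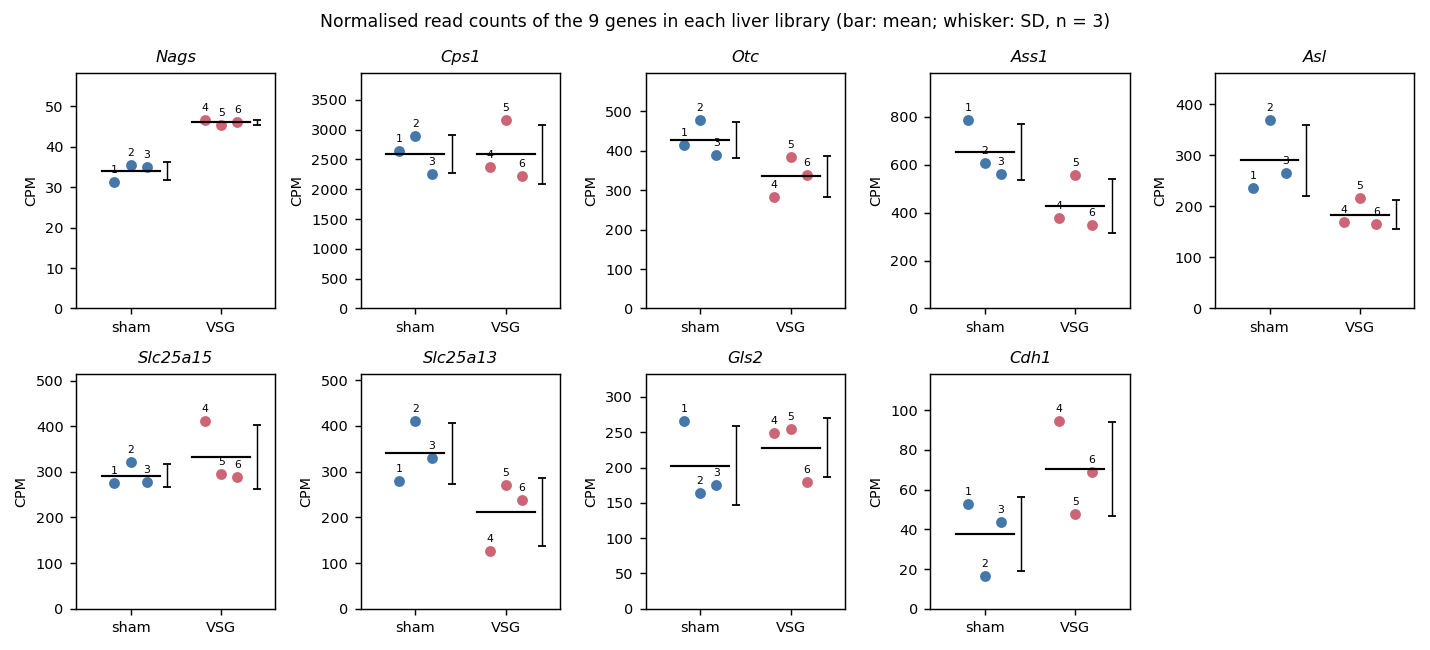
Level of each of the 9 genes in each liver, in CPM with TMM scaling on a linear axis per gene; numbered points are single livers, horizontal lines the mean of 3 and whiskers the SD. The VSG livers lie below all sham livers for Otc, Ass1, Asl and Slc25a13 and above them for Nags, and the groups overlap for Cps1, Slc25a15, Gls2 and Cdh1.

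Nags (chromosome 11, 102145513 to 102149477, plus strand of GRCm38) encodes N-acetylglutamate synthase, which makes the compound that Cps1 protein needs in order to work. It stood at 31.4, 35.5 and 35.0 CPM in the sham livers and at 46.6, 45.4 and 46.2 CPM in the VSG livers. The VSG values lay close together, and all exceeded the highest sham value. The means were 34.0 ± 2.25 and 46.0 ± 0.617 CPM (SD, n = 3 each), a log2 fold change of 0.44 ± 0.0866 (SE) with an adjusted p of 0.0245. The call depended on which library was left out, on the filter and on the scaling. It was kept without VSG 5 (adjusted p = 0.0404). It was lost without any 1 of sham 1, sham 2, sham 3, VSG 4 and VSG 6 (adjusted p = 0.0607, 0.0587, 0.104, 0.0578 and 0.0875), with no filter on low counts (0.0571) and with scaling by total counts alone (0.122). The log2 fold change stayed between 0.30 and 0.47 over all alternatives. Scaling by total counts moved the median over all genes from 0.03 to -0.11, so the 0.30 for Nags under that scaling stood against a lower centre. The same holds for genes that passed as lower under that scaling, among them Asl and Car5a, described below. The non-coding gene Gm11586 lies on the opposite strand across 443 exon bases of Nags and held 143 counts over the 6 livers against 5606 for Nags.

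Cps1 (chromosome 1, 67123026 to 67231259, plus strand) encodes carbamoyl phosphate synthetase, which joins ammonia and bicarbonate in the first committed step of the cycle. The sham livers held 2640, 2890 and 2262 CPM and the VSG livers 2371, 3158 and 2230 CPM. The highest and the lowest of the 6 values were both VSG livers. VSG over sham was -0.01 on the log2 scale (95% interval -0.55 to 0.53, adjusted p = 0.987), so the data bounded a change in Cps1 to between 0.685-fold and 1.45-fold. The sign turned positive without sham 2 (0.07), VSG 4 (0.05) or VSG 6 (0.091).

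Otc (chromosome X, 10252305 to 10321024, plus strand) encodes ornithine transcarbamylase, which makes citrulline from ornithine and carbamoyl phosphate. Its levels were 415, 477 and 390.1 CPM after sham and 282, 384 and 339 CPM after VSG. The groups did not overlap, but VSG 5 came close to sham 3. On the log2 scale the difference was -0.35 ± 0.163 (SE) with an adjusted p of 0.182, and none of 14 alternatives called it.

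The 250 bases before the start sites of Nags, the 1 member called by edgeR with all libraries, and of Otc are shown with the motifs found in them. Otc acts in the same compartment as Nags. Both come from RefSeq on GRCm38.p6, through a promoter table that held 5 of the 9 genes, and both windows end at a start site that RefSeq and GENCODE share. They run 5′ to 3′ along the gene's strand. The window of Nags is chr11:102145263-102145512 and that of Otc is chrX:10252055-10252304, and capitals mark matches to any of 10 motifs on either strand.
Nags: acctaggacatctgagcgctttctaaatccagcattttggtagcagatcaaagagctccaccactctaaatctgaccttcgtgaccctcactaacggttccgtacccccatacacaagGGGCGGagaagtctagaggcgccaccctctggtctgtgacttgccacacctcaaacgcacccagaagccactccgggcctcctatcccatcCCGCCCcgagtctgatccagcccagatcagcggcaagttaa
Otc: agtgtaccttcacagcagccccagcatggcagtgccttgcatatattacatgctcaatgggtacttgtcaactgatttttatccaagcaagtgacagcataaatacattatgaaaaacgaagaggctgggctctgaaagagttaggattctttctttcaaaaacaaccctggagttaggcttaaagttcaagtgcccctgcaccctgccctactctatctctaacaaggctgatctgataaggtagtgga
The capitals in Nags are GC boxes (GGGCGG), 1 in the direction of the gene at bases -132 to -127 and 1 on the opposite strand at -41 to -36, a motif that 32.7% of 32817 promoter windows of this length held. The Otc window had no match to any of the 10 motifs. Its GC content was 43.6% and that of Nags 55.6%. The other motifs sought were the cyclic AMP response core (TGACG, in 17.7% of windows), the CCAAT box (CCAAT, 33.8%), the TATA box (TATAAA, 12.4%), the E-box (CACGTG, 6.02%), the HNF4 site (TGNACTTTG, 1.19%), the NR5A2 site (TCAAGGTCA, 0.387%), the amino acid response element (TGATGNAA, 3.45%), the HNF1 core (GTTAAT, 6.44%) and the glucocorticoid receptor core (TGTTCT, 16.1%). No motif of the 10 contains another, and a match describes the letters only.

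Ass1 (chromosome 2, 31470207 to 31520672, plus strand) encodes argininosuccinate synthase, which joins citrulline to aspartate and so brings in the second nitrogen of urea. It was at 786, 608 and 563 CPM in the sham livers and at 378, 557 and 347 CPM in the VSG livers. All VSG livers were below all sham livers, with VSG 5 just short of sham 3. The means of 652 ± 118 and 427 ± 113 CPM gave a log2 fold change of -0.61 (95% interval -1.17 to -0.05), with an adjusted p of 0.121. Without VSG 5 the value was -0.87 with an adjusted p of 0.0347, which was the only alternative of 14 in which Ass1 passed.

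Asl (chromosome 5, 130011258 to 130029247, minus strand) encodes argininosuccinate lyase, which releases arginine and fumarate. Its levels were 235, 369 and 266 CPM after sham and 170.0, 216 and 165 CPM after VSG. The groups did not overlap, and the sham livers were the more spread. The difference came to -0.66 ± 0.206 on the log2 scale (SE, 95% interval -1.15 to -0.17) with an adjusted p of 0.0745. It passed in 3 of 14 alternatives, with DESeq2 (adjusted p = 0.0201), with total-count scaling (0.0316) and without VSG 5 (0.0490).

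**Figure D2:**
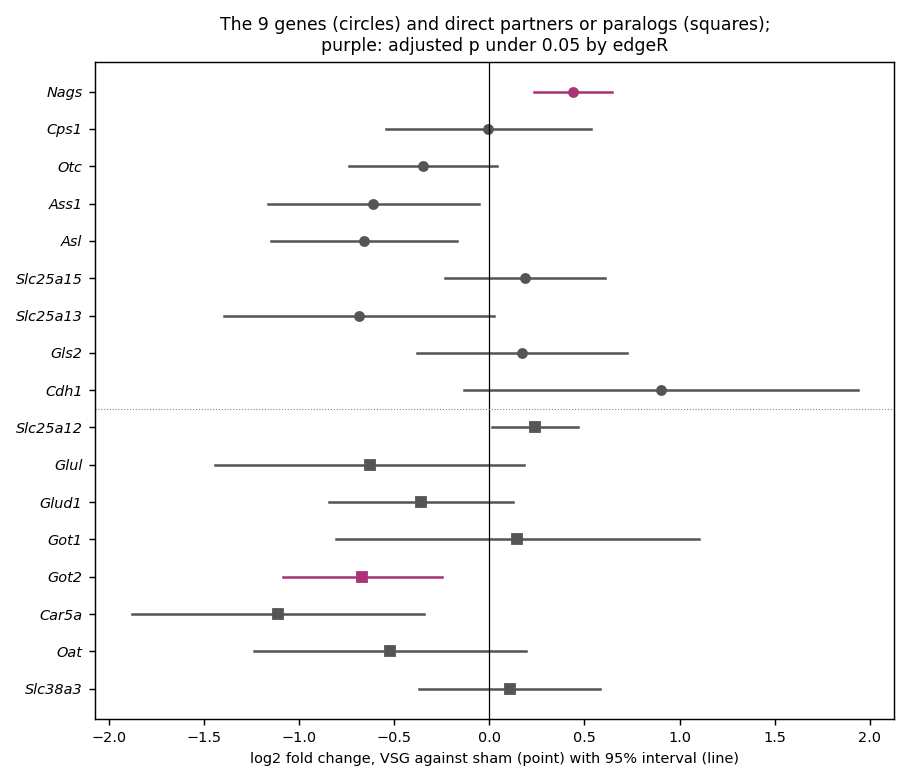
Log2 fold change of VSG over sham (symbols) with 95% intervals (lines) from edgeR for the 9 genes (circles) and 8 of their direct partners or paralogs (squares). Among the 9 genes the purple mark of an adjusted p under 0.05 is on Nags, at 0.44, and among the partners on Got2, at -0.67. The intervals of Ass1, Asl, Car5a and Slc25a12 leave out 0 without passing the adjustment over all genes.

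The carriers that link the matrix to the cytosol gave values on either side of 0. Slc25a15 (chromosome 8, 22375551 to 22398597, minus strand), the ornithine and citrulline exchanger, was at 276, 322 and 278 CPM after sham and at 412, 296 and 288 CPM after VSG. VSG 4 alone exceeded the sham livers. The log2 fold change was 0.19 (adjusted p = 0.484) with VSG 4 and 0.00 without it. Slc25a13 (chromosome 6, 6041218 to 6217173, minus strand) encodes citrin, the aspartate and glutamate carrier that delivers aspartate to the Ass1 reaction. Its levels were 280.1, 412 and 330 CPM in the sham livers and 127, 271 and 237 CPM in the VSG livers. The groups did not overlap, and VSG 4, the liver highest for Slc25a15, was the lowest for Slc25a13. The log2 fold change of -0.69 (95% interval -1.39 to 0.02) had an adjusted p of 0.158 and was -0.42 without VSG 4.

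The Slc25a13 window, chr6:6217174-6217423 on the minus strand, is shown because it held 3 different motifs of the 10 and ends at a start site common to RefSeq and GENCODE. Capitals mark the matches.
Slc25a13: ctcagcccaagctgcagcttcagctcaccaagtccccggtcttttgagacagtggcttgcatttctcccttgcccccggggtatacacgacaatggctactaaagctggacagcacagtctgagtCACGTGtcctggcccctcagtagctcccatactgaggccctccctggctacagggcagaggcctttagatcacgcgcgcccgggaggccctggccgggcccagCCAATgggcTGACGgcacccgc
Read from its 5′ end, these are an E-box at bases -125 to -120, a CCAAT box at -22 to -18 and a cyclic AMP response core at -13 to -9, all in the direction of the gene. The GC content of the window was 62.8%.

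Gls2 (chromosome 10, 128194457 to 128210004, plus strand) encodes the liver glutaminase, which frees ammonia from glutamine in the mitochondria of periportal cells. Its levels were 267, 165 and 176 CPM after sham and 249, 255 and 180.02 CPM after VSG. The groups overlapped fully, since the highest and lowest livers were both sham. On the log2 scale VSG over sham was 0.17 (95% interval -0.38 to 0.72, adjusted p = 0.624). Spryd4 shares 97 exon bases with Gls2 on the opposite strand and held 3614 counts over the 6 livers beside 30689 for Gls2.

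Cdh1 (chromosome 8, 106603351 to 106670246, plus strand) is higher in periportal than in pericentral hepatocytes and is also made by bile duct cells. It was at 52.6, 16.6 and 43.8 CPM in the sham livers and at 94.8, 47.7 and 68.9 CPM in the VSG livers. VSG 5 lay below sham 1, so the groups overlapped, and sham 2 stood far below the other 5 livers. At 0.90 ± 0.436 (SE), its log2 fold change was the largest of the 9 in size and had an adjusted p of 0.194. It was 0.54 without sham 2 and 0.63 without VSG 4. Bile duct markers summed to 195, 75.3 and 287.5 CPM in the sham livers and to 224, 100.8 and 171 CPM in the VSG livers. Most of it came from Spp1 alone, at 157, 49.9 and 235 CPM after sham and 150, 53.0 and 118 CPM after VSG. The duct sum overlapped between the groups but, like Cdh1, was lowest in sham 2. Within the VSG group it ran from VSG 4 over VSG 6 to VSG 5. The macrophage sums (932, 447 and 637 CPM after sham, 2519, 962 and 1674 CPM after VSG) ordered the livers within each group as Cdh1 did. So did the neutrophil sums (15.4, 2.83 and 5.70 CPM after sham, 1877, 154 and 865 CPM after VSG). The lymphocyte sums gave that order too (10.6, 9.37 and 9.65 CPM after sham, 18.6, 8.55 and 14.2 CPM after VSG). The part of any of these cell types in Cdh1 was not tested. The duct keratin Krt19 was at 0.32 to 1.48 and 0.271 to 0.684 CPM, and Epcam was at 1.37 to 5.74 and 1.24 to 1.63 CPM. Of the 8 duct markers tested 1 (12.5%), Sox9, rose. Of 12 epithelial junction genes, edgeR called 1 higher (Cldn1) and 0 lower, or 8.33% beside 14.7% of all genes. At an unadjusted p under 0.05, 2 were higher and 1 lower. The lower one was Ctnna1 (log2 -0.38, adjusted p = 0.0600, without overlap), which passed in 3 of 14 alternatives. Krt19, Epcam, Sox9, Cldn1 and Ctnna1 were named after their values had been seen.

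Per unit of exon length, the genes covered a wide range. In FPKM, counts relative to exon length and library size, the sham means were 468 ± 57.0 for Cps1 and 270.2 ± 48.8 for Ass1 (SD, n = 3), which placed them 76th and 139th among the genes tested. They were followed by Otc (101 ± 10.6), Slc25a13 (89.7 ± 17.5), Asl (60.1 ± 14.5), Gls2 (58.2 ± 16.1) and Slc25a15 (51.9 ± 4.61). Nags (12.0 ± 0.792) and Cdh1 (8.23 ± 4.10) had the lowest FPKM. Adjacent genes in this order overlapped among the sham livers except at 3 steps, from Cps1 to Ass1, from Ass1 to Otc and from Slc25a15 to Nags. In the VSG livers Cps1 again had the highest FPKM mean (466 ± 90.0), and Asl, at 38.01 ± 5.86, ranked by its mean below Gls2, Slc25a15 and Slc25a13.

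The same livers led for several genes. Sham 2 was the highest sham liver for 6 of the 9 genes and the lowest for Gls2 and Cdh1. VSG 5 was the highest VSG liver for 6 genes, namely Cps1, Otc, Ass1, Asl, Slc25a13 and Gls2, and it also had the smallest sum of neutrophil markers among the VSG livers. Whether those markers bore on the order of the livers was not tested. The 9 genes were read in the same 6 livers and are not replicates of the operation.

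Ratios between genes within a liver do not depend on how libraries are scaled, and 8 were computed from counts per exon base, a set chosen after the levels had been seen. Ass1 stood at 0.685, 0.484 and 0.573 of Cps1 after sham and at 0.367, 0.406 and 0.358 of Cps1 after VSG, which was 1.53-fold lower. The groups did not overlap. Asl to Cps1 was at 0.103, 0.147 and 0.135 against 0.0825, 0.0787 and 0.0849, a log2 difference of -0.63. Ass1, Asl and Otc each stood lower relative to Cps1 in every VSG liver than in any sham liver, whereas Ass1 to Otc overlapped between the groups (log2 difference -0.27, exact permutation p = 0.5).

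Of the 8 ratios, 4 had groups without overlap, the others of these being Otc to Cps1 (log2 difference -0.34) and Slc25a15 to Otc (0.53, and 0.24 without VSG 4). Nags to Cps1 had a log2 difference of 0.46 with groups that overlapped, since VSG 5 (0.0281) lay below sham 3 (0.0302). Each of the 4 had an exact two-sided permutation p of 0.1, which is the smallest that 3 livers against 3 can give, and 0.2 after Benjamini-Hochberg adjustment over the 8, so none could pass 0.05 in this design. Asl to Ass1 (-0.02) and Slc25a13 to Ass1 (-0.11) had overlapping groups, with exact permutation p-values of 1 and 0.8. Several ratios share a gene, so the 4 are not independent of each other. No share over other gene pairs was computed to set beside them. Otc, Ass1 and Asl were without overlap as single genes, and Cps1 had a log2 fold change of -0.01. Their ratios to Cps1 are thus not a separate result.

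**Figure D3:**
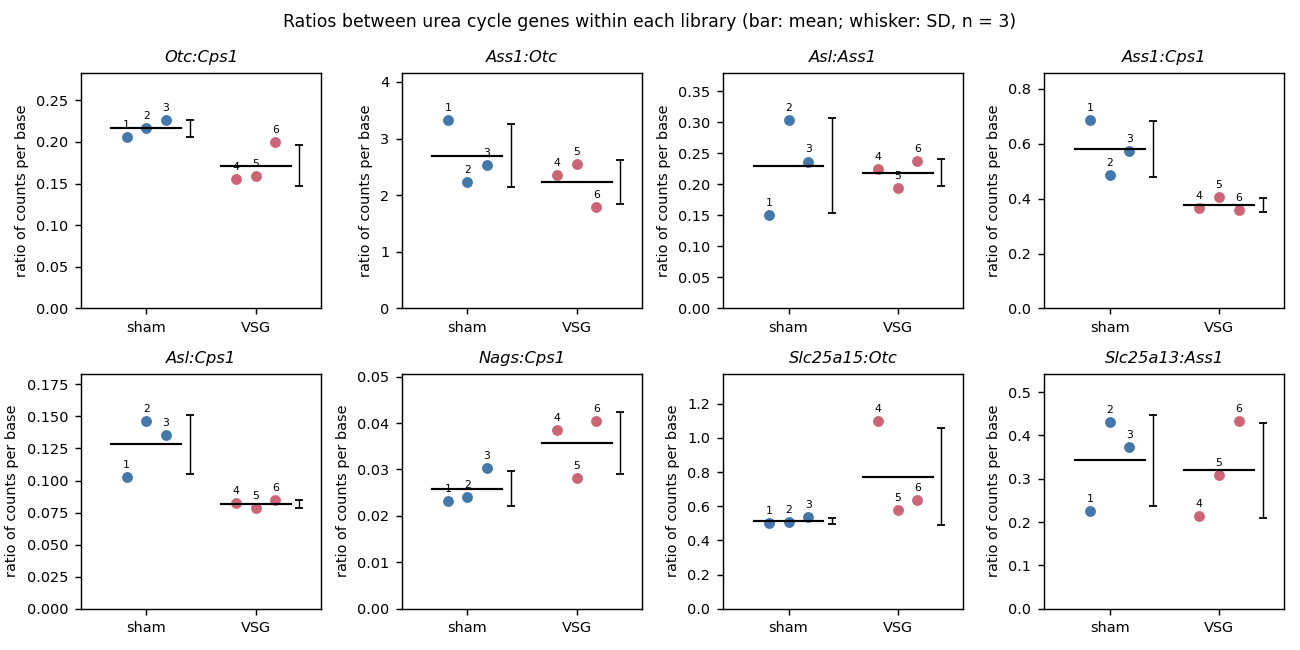
Ratios of counts per exon base for the 8 gene pairs in each liver, on linear axes from 0; numbered points are single livers, horizontal lines the mean of 3 and whiskers the SD. Ass1 to Cps1 is lower in each VSG liver (0.358 to 0.406) than in any sham liver (0.484 to 0.685), and Asl to Cps1 and Otc to Cps1 are lower as well.

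A wider list held 22 tested genes of nitrogen supply and of functions beside the cycle, among them transaminases, amino acid and urea transporters, Glul, which takes up ammonia, and Car5a, which supplies bicarbonate. Log2 fold changes were below 0 for 16 of the 22. Of the 22, 8 passed the test, 1 higher and 7 lower, and the median log2 fold change was -0.41 against 0.03 over all genes. The share called was 36.4% beside 14.7% of all genes. The groups did not overlap for 3 of them in the higher and 10 in the lower direction, beside 19.8% of all genes each way. Asns, which makes asparagine from aspartate and glutamine, rose from 3.62, 0.64 and 0.798 CPM in the sham livers to 59.7, 56.4 and 33.3 CPM in the VSG livers. The smallest VSG value was thus far above the largest sham value. The fold was 28.9 (log2 4.85 ± 0.644 SE, adjusted p = 0.0101), and the adjusted p was 0.0556 without sham 3. The size was less certain than the direction, with a log2 value of 6.09 without sham 1, the sham liver with the most Asns, and 3.59 on the log2(FPKM + 1) scale, which understates the change of low genes.

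The 7 that fell hold several transaminases and enzymes that route amino groups to glutamate and aspartate. Gpt2, the mitochondrial alanine transaminase, fell from 1049 ± 118 to 440 ± 79.0 CPM (log2 -1.25, adjusted p = 0.0134). Its cytosolic relative Gpt fell too (-0.68, adjusted p = 0.0437). Got2, the mitochondrial aspartate transaminase, fell from 207 ± 26.8 to 130.01 ± 25.1 CPM (-0.67, adjusted p = 0.0489), whereas cytosolic Got1 was at 119 ± 35.5 and 132 ± 71.8 CPM and did not pass (adjusted p = 0.815). The other genes that fell were Mdh1 (-0.69), the cytosolic malate dehydrogenase, Aldh4a1 (-0.73) and Prodh (-0.89), enzymes of proline breakdown to glutamate, and Sirt5 (-0.85), a mitochondrial deacylase known to act on Cps1 protein. Gpt and Prodh were named after their values had been seen. Got2 and Prodh lay close to the threshold and lost their calls with limma-voom (adjusted p = 0.0515 and 0.0522) and RLE size factors (0.0502 and 0.0507), and Prodh also with limma on log2(FPKM + 1) (0.0507).

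The count moved with the processing and with single libraries. Of this list, 11 genes were called by DESeq2, 11 with total-count scaling and 6 with RLE size factors. The number was 5 without sham 1, 2 without sham 2, 0 without sham 3, 3 without VSG 4, 9 without VSG 5 and 1 without VSG 6. Over all genes the calls fell from 2118 to 159 without sham 3 and 210 without VSG 6. The direction of the list held, with medians from -0.61 to -0.28 over the alternatives.

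Several direct partners of the members did not pass. Car5a, the mitochondrial carbonic anhydrase that supplies bicarbonate to Cps1, was at 38.4, 61.1 and 44.8 CPM after sham and at 12.4, 28.2 and 25.997 CPM after VSG. The groups were apart, and the log2 value of -1.11 had an adjusted p of 0.0636. It passed in 4 of 14 alternatives, with DESeq2 (adjusted p = 0.0104), total-count scaling (0.0307), no filter on low counts (0.0260) and without VSG 5 (0.0488). Glud1 (-0.36, adjusted p = 0.255), Glul (-0.63, 0.237), Oat (-0.52, 0.261) and Slc38a3 (0.11, 0.730, but -0.018 with total-count scaling) overlapped between groups. Slc25a12, the paralog of Slc25a13, was at 21.9, 21.7 and 21.8 CPM against 27.9, 25.4 and 23.9 CPM (0.24, adjusted p = 0.131). Slc25a2, a second ornithine carrier, held 0 to 4 counts per liver and was not tested.

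Of 18 further genes of arginine, ornithine and polyamine metabolism and transport, 1 fell and none rose in edgeR's test, while 3 were lower and 0 higher at an unadjusted p under 0.05 and DESeq2 called 2 lower and 1 higher. The gene that fell was Ddah1, which clears methylated arginines, from 248 ± 13.7 to 116 ± 22.7 CPM (log2 -1.10, adjusted p = 0.0134, and not called without sham 3 or VSG 6). The share called was 5.56% beside 14.7% of all genes, and 5 of the 18 had groups without overlap, all lower after VSG, beside 19.8% of all genes in that direction. The median of the list was -0.25.

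Of other zone markers, 3 of 15 periportal (20%) and 2 of 16 pericentral genes (12.5%) passed, beside 14.7% of all genes. Among the 15 periportal markers, Ctsc, encoding cathepsin C, rose (log2 1.75, adjusted p = 0.0127), and Apoa4, an apolipoprotein (-3.45, 0.00389), and Hsd17b13, a lipid droplet protein (-0.93, 0.0163), fell. At an unadjusted p under 0.05, 2 of the 15 were higher and 5 lower, and DESeq2 called 2 higher and 5 lower. Apoa4 was at 2699, 2524 and 4459 CPM in the sham livers and at 326, 322 and 239 CPM in the VSG livers, and it passed under all 14 alternatives. Ctsc is also made by neutrophils and macrophages, whose markers rose with it, and their part in its value was not tested. Among the 16 pericentral markers, Cyp2a5 (-2.93, adjusted p = 0.0241) and Lect2 (-1.17, 0.0269) fell and none rose, with 5 lower and 1 higher at an unadjusted p under 0.05. DESeq2 called 5 lower and 1 higher. The medians were -0.12 for the periportal and -0.41 for the pericentral list. The periportal median was above 0 with limma-voom (0.061), with limma on log2(FPKM + 1) (0.062) and without sham 2 (0.040), and the pericentral median was -0.12 without sham 2. The periportal count was 1 without sham 3 or VSG 6 and 5 without VSG 5, and the pericentral count was 0 without sham 2, sham 3 or VSG 6.

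Among 20 regulators of urea cycle genes, 2 rose and 2 fell, or 20% called beside 14.7% of all genes. Creb1, the cyclic AMP response factor, rose from 25.5 ± 0.875 to 35.5 ± 3.14 CPM (log2 0.48, adjusted p = 0.0269), and Nr5a2, a nuclear receptor of hepatocytes, rose from 77.1 ± 10.4 to 124 ± 18.5 CPM (0.69, 0.0332). Ppargc1a, a coactivator of fasting programs, fell from 20.9 ± 3.89 to 12.1 ± 2.02 CPM (-0.79, adjusted p = 0.0371), and the second that fell was Sirt5, which stands in the supply list too. The number called was 3 without sham 1 (none higher, so that Creb1 and Nr5a2 were both lost, with adjusted p = 0.0678 and 0.0861), 1 without sham 2 or VSG 4, 0 without sham 3 or VSG 6, and 7 without VSG 5. Creb1 was also lost with total-count scaling (log2 0.34, adjusted p = 0.171).

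**Figure D4:**
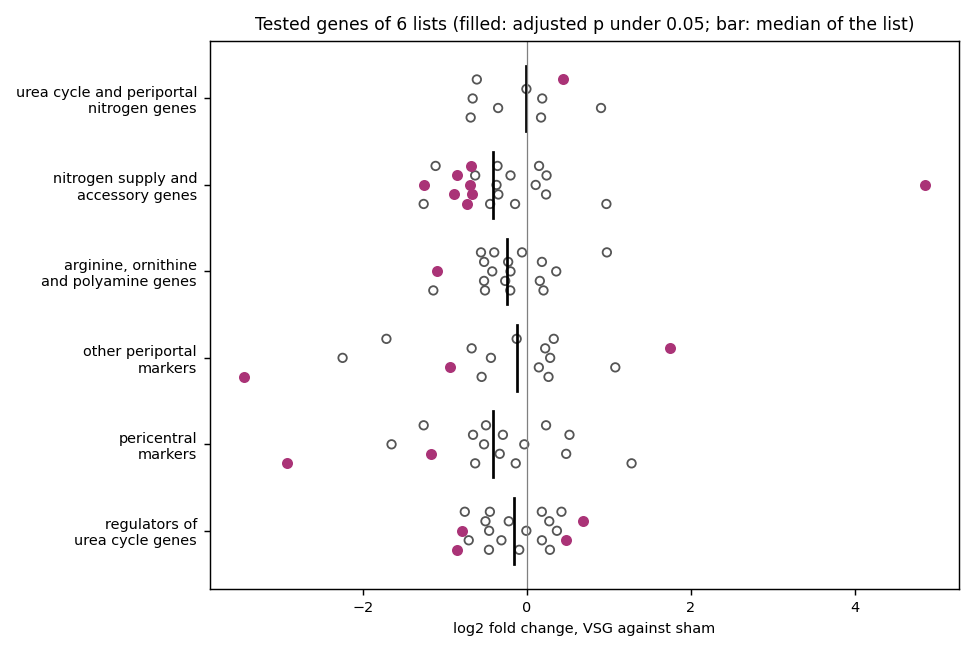
Log2 fold change of VSG over sham (horizontal axis) for each tested gene of 6 lists, the 9 members first; filled points passed an adjusted p of 0.05 in edgeR, vertical bars mark list medians, and the height of a point within its list has no meaning. The nitrogen supply and accessory list has 7 filled points below 0 and Asns at 4.85, and the members hold 1 filled point, Nags.

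The genes most like Cps1 over the 6 livers, by Pearson's r of log2 CPM among 9954 genes with a mean of at least 5 CPM, were Adck2 (r = 0.989), Thoc7 (0.987) and Dip2c (0.960). Those most like Ass1 were Vps52 (0.987), Arhgap23 (0.984) and Tbl1x (0.983). These values describe 6 livers that share the group difference and the scaling.

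**Figure D5:**
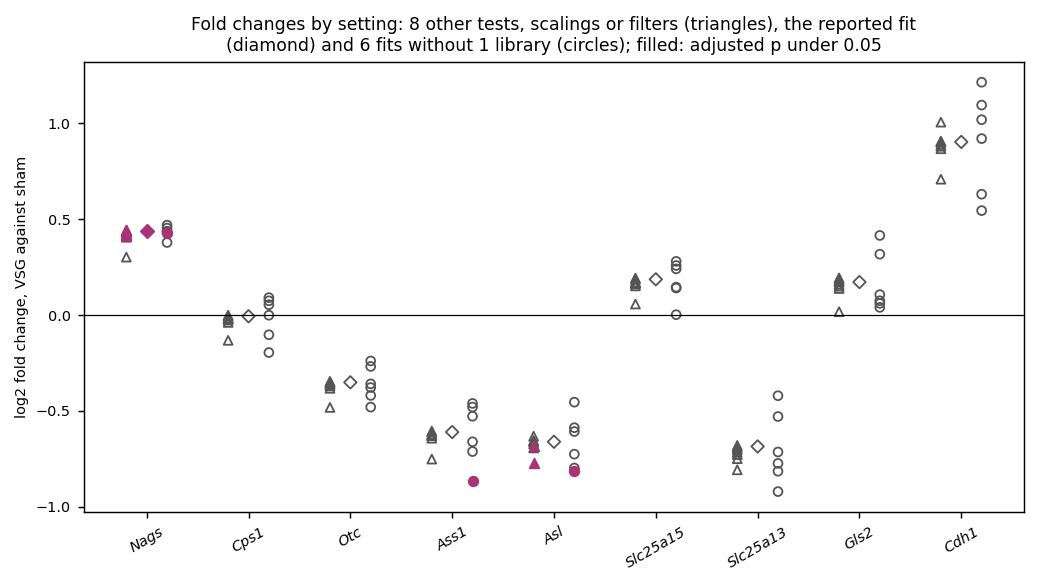
Log2 fold change of each member in edgeR with all libraries (diamonds), under 8 other tools, scalings or filters (triangles) and with each library left out in turn (circles); purple symbols passed an adjusted p of 0.05, and grey open symbols that lie on each other look filled. Nags stays between 0.30 and 0.47 with 7 of 14 alternatives past the threshold, Cps1 lies on both sides of 0, and Cdh1 runs from 0.54 to 1.21 without passing.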

How the data were processed

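Raw read counts per gene were deposited, 1 column per liver, with gene positions and the summed exon length of each gene, which is no measurement. Per the study's methods the authors made strand-specific poly(A) libraries. The submitters' processing notes name FastQC 0.10.1, STAR 2.6.0, featureCounts 2.0.3 and mm10. The annotation release, strand option and treatment of multimapping reads were not given in the sources used here, so overlapping and antisense genes are uncertain. Of 55385 identifiers, 54487 equalled those of GENCODE M21 in identifier, version, start and end, and symbols were taken from it. Groups follow the sample titles.

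Counts were tested with edgeR 4.0.16 (R 4.3.3): filterByExpr (minimum count 10, minimum total 15), TMM factors from 0.897 to 1.15, glmQLFit and glmQLFTest with operation as the single factor, and Benjamini-Hochberg adjustment over 14454 genes. All adjusted p-values come from it unless another tool is named. The SE is the log2 fold change over the square root of F, and 95% intervals use the same test. FPKM used the deposited exon length. A count of 3 was the floor, 0.111 to 0.143 CPM, for counting error only. Libraries of a group differed by more than counting noise (chi-square per degree of freedom 27.5 to 212). The code was tested on simulated counts. Alternatives were DESeq2 1.42.0, limma 3.58.1 (voom, and log2 of FPKM plus 1), other scalings and filters, and leaving out each library. The members, lists and tests were chosen with earlier results of these data known, and the ratios and some alternatives after seeing the data. Named genes were all members, up to 4 called genes with the smallest p per direction in each list, 9 direct partners, and the 3 genes most like Cps1 and Ass1. Some listed genes are not reported here, and every count, median and figure leaves them out.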

Additional observations from a re-analysis of the deposited data

How the results depend on the processing

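Over the alternatives, 112 of 126 values of the 9 members kept their direction and their side of the threshold, 4 passed it newly, 7 lost it and 3 changed sign. All 3 sign changes were in Cps1, without sham 2, VSG 4 or VSG 6, and its log2 fold change ran from -0.20 to 0.091 with a library left out. Of the other named genes, Got1 ran from -0.38 to 0.42 and Slc38a3 from -0.029 to 0.23 with a library left out, and Slc38a3 was -0.018 with total-count scaling. Of the members, 2 were called by DESeq2, 0 without a filter on low counts and 0 to 3 with a library left out. The supply and accessory genes called ranged from 0 to 9 with a library left out. The arginine and ornithine genes called were 3 with DESeq2, 2 with total-count scaling, 2 without a filter and 0 to 2 with a library left out. Periportal markers called were 7 with DESeq2, 6 without a filter and 1 to 5 with a library left out. Pericentral markers called were 6 with DESeq2, 4 with total-count scaling and 0 to 2 with a library left out, and regulators called were 0 to 7. Over all genes, DESeq2, fitted to 27530 genes without the low-count filter, called 3270 and edgeR called 2118 of 14454. The default filter of DESeq2 on mean counts then set which genes entered its adjustment, so that setting changed tool and filter together. Leaving out a library gave 159 (sham 3) to 2732 (VSG 5). The cause was not tested. No paired analysis was possible because the sample numbers, 1 to 3 for sham and 4 to 6 for VSG, are not shared between the groups. The lowest count of any member was 363, for Cdh1 in sham 2, and the part of depth in the calls was not tested. With 3 livers per group the intervals were wide.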
